A study of Gallus gallus with 23 samples.

Results

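Gene expression in the growth cartilage of the distal chick femur was compared between E15 and the earlier stages E12 and E13 (E, embryonic day). The comparison took every control femur array of the series, which is 2 arrays at E15, 3 at E12 and 3 at E13, or 8 of the 23 arrays. The other arrays hold control growth cartilage of the proximal tibiotarsus (TBT) at the same stages (9 arrays), and femur and TBT of embryos paralysed with decamethonium bromide. All groups described here were chick embryos given the vehicle, Tyrode's solution, from E10, when the others began to receive the blocking agent. Each array was hybridised with RNA from cartilage pooled from 4 embryos of unknown sex, dissected so as to leave out ossified bone, marrow and red blood cells. The study asked how growth of each skeletal element responds to embryo movement, and the arrays compared here follow that growth in embryos that were not paralysed.

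A long bone lengthens through its growth plate. Resting chondrocytes give rise to columns of flat, dividing chondrocytes, which leave the cell cycle, swell into hypertrophic chondrocytes, make a matrix rich in type X collagen and begin to mineralise it. Vessels, osteoclasts and bone-forming cells then enter the hypertrophic cartilage, and hedgehog, PTHrP, BMP, Wnt and FGF signals set how fast chondrocytes pass along this route.

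Values are on the log2 scale, so a difference of 1 is a doubling, and 1 probe set stands for 1 transcript model. The array medians of the 23 arrays lay between 5.78 and 5.85. Pearson's r between femur arrays was 0.962 to 0.977 within a stage and 0.941 to 0.978 between stages, over probe sets. Among chondrocyte markers, ACAN, HAPLN1, COL9A1 and MATN1 were at percentiles 99.6 to 99.8 of all probe sets and SOX9 at 92.4. COL1A1 of bone and fibrous tissue was at percentile 99.9 and ACTA1 of skeletal muscle at 93.8. A percentile also depends on how well a probe set binds its target, so levels of different genes were not compared. In RNA of a whole tissue, fewer cells of a type and less RNA per cell cannot be told apart. The sample records carry a numeric code for each array whose meaning is not stated. Both E15 femur arrays have code 05, as do E12 replicates 1 and 2, while E12 replicate 3 has 09 and all E13 arrays have 07, so E13 and E15 femur share no code. The E15 control TBT arrays have 07 or 09, so femur and TBT share no code at E15 either.

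Between E12/13 and E15, named genes that rose in the femur included MMP9 and MMP13 of hypertrophic cartilage. IBSP and DMP1 of mineralising cartilage and bone, LUM and COL6A2 of fibrous matrix, LY86 of immune cells and RHAG of red blood cells also rose. Those that fell included the muscle genes TNNI1 and TNNC1, the BMP receptor BMPR1B, the hedgehog target GLI1 and NDUFC2 of the respiratory chain. Among the genes of this paragraph, MMP13, IBSP, DMP1, GLI1 and NDUFC2 passed the threshold under only some of the settings described below. Of 11004 probe sets past the filter on spread, 1346 (12.2%) differed at an adjusted p under 0.05, which is the threshold for a call throughout. Of these, 579 (5.26%) were higher at E15 and 767 (6.97%) lower. With 1 probe set for each of 7122 genes, 1026 (14.4%) were called, 448 higher (6.29%) and 578 lower (8.12%). These shares are the background beside which the counts of the gene lists below are given. The lists were chosen with earlier results of these data known. A share above the background may in part come from that choice, so the list counts are a description and not a test. Both E15 arrays lay outside the range of all 6 younger arrays at 1279 of the 1346 called probe sets, beside 2928 (26.6%) of all those tested. The calls were made on the same arrays, so this separation follows in large part from the call and does not test it.

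Most of the called changes were modest. The median difference was 0.53 among the higher and -0.48 among the lower probe sets, 89 rose by more than 1 and 69 fell by more than 1. The count rested on the 2 arrays at E15. Without E15 replicate 1, 264 probe sets were called, and without E15 replicate 2, 199. The arrays of code 05 alone, 2 femur arrays at E15 against 2 at E12, gave 335 calls. Their spread was shared with the 3 paralysed E15 femur arrays of that code. A fit of the 8 femur arrays alone gave 231 calls, and the array code as a block 1064. These totals include probe sets outside the 1346. Of the 1346, 790 were still called in the same direction with the array code as a block. In the fit of the 8 femur arrays 216 were, and within code 05, 295. Counts of list members under other settings, given below, are to be read beside the totals of this paragraph, out of 11004 probe sets. Of all 1346 calls, 57 (32 higher, 25 lower) were made under each of 18 other settings. In the setting of code 05 the contrast was E15 against E12, with no E13 array.

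**Figure D1:**
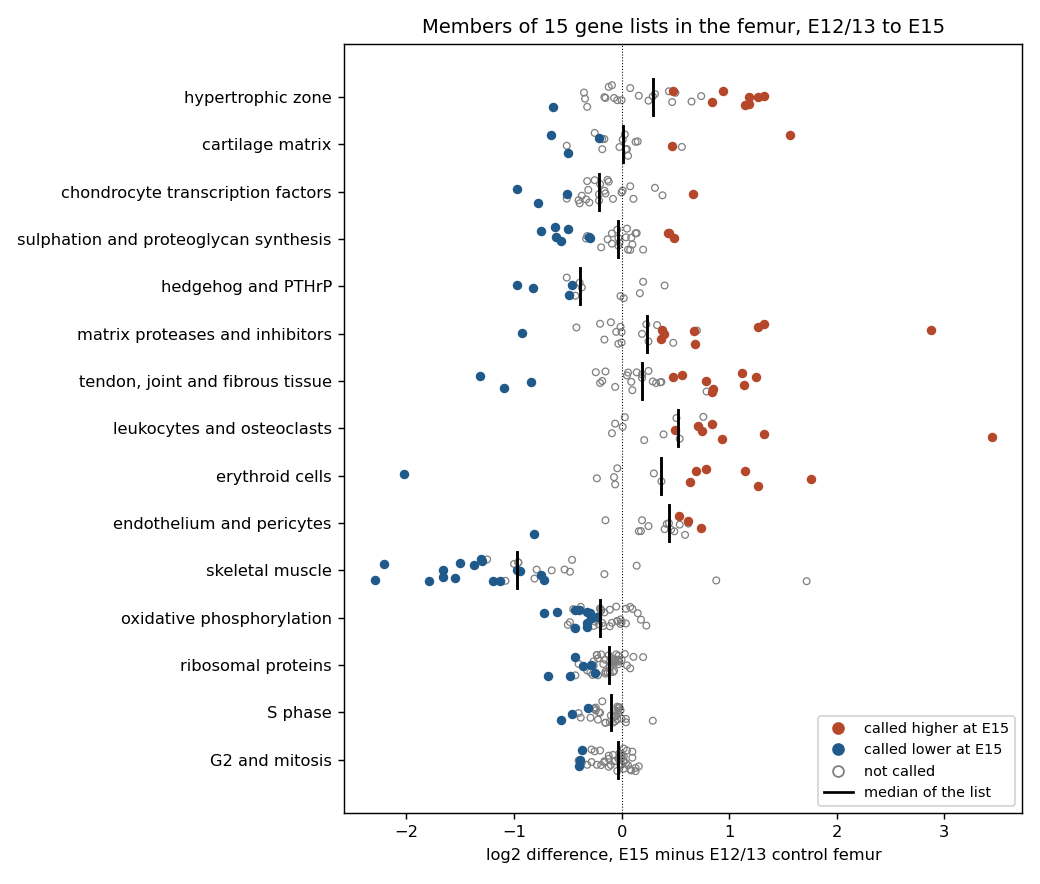
Difference in log2 value between E15 and E12/13 control femur (horizontal axis) for the members of 15 gene lists past the filter. Each point is 1 gene, filled where the adjusted p was under 0.05, and the black bar is the median of the list. The median of skeletal muscle lay at -0.97 and that of leukocytes and osteoclasts at 0.53, whereas the members of the cartilage matrix list lay on both sides of a median of 0.01.

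In the hypertrophic zone list, 8 of 29 measured members rose, 1 fell and 20 were not called (31% called, background 14.4%), with a median difference of 0.29 beside 0.01 over all genes. Those that rose included the collagen of hypertrophic cartilage, COL10A1, the collagenase MMP13 and the gelatinase MMP9, and the acidic matrix protein IBSP, which binds mineral. The 1 that fell was RUNX2, the transcription factor that drives chondrocytes into hypertrophy and cells into the osteoblast lineage.

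COL10A1 read 10.78, 9.05 and 10.54 in the E12 arrays, 10.34, 10.81 and 11.33 in the E13 arrays, and 11.70 and 11.60 at E15. Both E15 arrays lay above every younger one, but the younger arrays spread over more than 2 units and E13 replicate 3 came close. The difference was 1.18 ± 0.37 (SE; 2.26-fold) with an adjusted p of 0.0483, and this call held under 7 of 18 other settings. MMP13 was at 9.54, 9.28 and 9.76 at E12, 10.24, 9.65 and 10.50 at E13, and 11.28 and 10.92 at E15. Its stage means were 9.53, 10.13 and 11.10, and the rise of 1.27 ± 0.25 (2.41-fold, adjusted p = 0.00399) was called under 17 of 18 other settings.

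MMP9, which osteoclasts also make and which lets vessels into the hypertrophic cartilage, gave 8.54, 8.37 and 8.58 at E12, 8.94, 9.23 and 9.41 at E13 and 10.23 and 10.09 at E15. The 3 stages did not overlap. The rise was 1.32 ± 0.20 (adjusted p = 0.000919), a second probe set of the gene rose by 1.62, and the call held under all 18 other settings. Among the mineral-binding proteins, IBSP lay at 4.95 to 5.88 in the younger arrays and at 6.21 and 7.06 at E15 (1.18 ± 0.27, adjusted p = 0.0102). The younger mean of IBSP lies below the median of every array, so the size of this rise is uncertain. DMP1, a matrix phosphoprotein of osteocytes and mineralising cartilage, was at 5.32, 5.84 and 5.38 at E12, 6.03, 6.25 and 6.14 at E13 and 7.13 and 8.05 at E15. DMP1 belongs to the osteoblast and periosteum list, of which 3 of 22 measured members rose and 1 fell (18.2%). Its rise was the largest among the mineral genes named here (1.76 ± 0.38, 3.39-fold, adjusted p = 0.00799), and again the 3 stages did not overlap.

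ENPP1, which makes the mineralisation inhibitor pyrophosphate, rose by 0.94 ± 0.16 (adjusted p = 0.00191), and PHEX, a membrane peptidase of mineralising cells, by 0.84 ± 0.25 (0.0362). For PHEX, E15 replicate 1 at 8.16 lay just above the highest younger array at 8.0, whereas replicate 2 was at 9.10. CLEC3A, a lectin-like protein of cartilage, rose by 1.15 ± 0.28 (0.0135). SPP1 (osteopontin) was higher on both E15 arrays, 11.16 and 11.45 against 10.30 to 10.97, with a difference of 0.74 ± 0.29 that did not pass (adjusted p = 0.0951). RUNX2 was at 10.91 to 11.18 in the 6 younger arrays and at 10.51 and 10.32 at E15, and fell by 0.64 (SE 0.14, adjusted p = 0.00799).

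Of the 9 genes called in these paragraphs, MMP13, ENPP1, CLEC3A and COL10A1 lost the call without E15 replicate 1 (adjusted p = 0.053 to 0.242). Without E15 replicate 2, the calls of CLEC3A, COL10A1, DMP1, IBSP, PHEX and RUNX2 were lost (0.127 to 0.533). COL10A1, DMP1, IBSP and PHEX were not called with the array code as a block (0.0522 to 0.16), and these and CLEC3A not within code 05 (0.0634 to 0.23). COL10A1 and PHEX also lost theirs without E12 replicate 2 or without E13 replicate 1 or 2 (0.0514 to 0.0798).

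**Figure D2:**
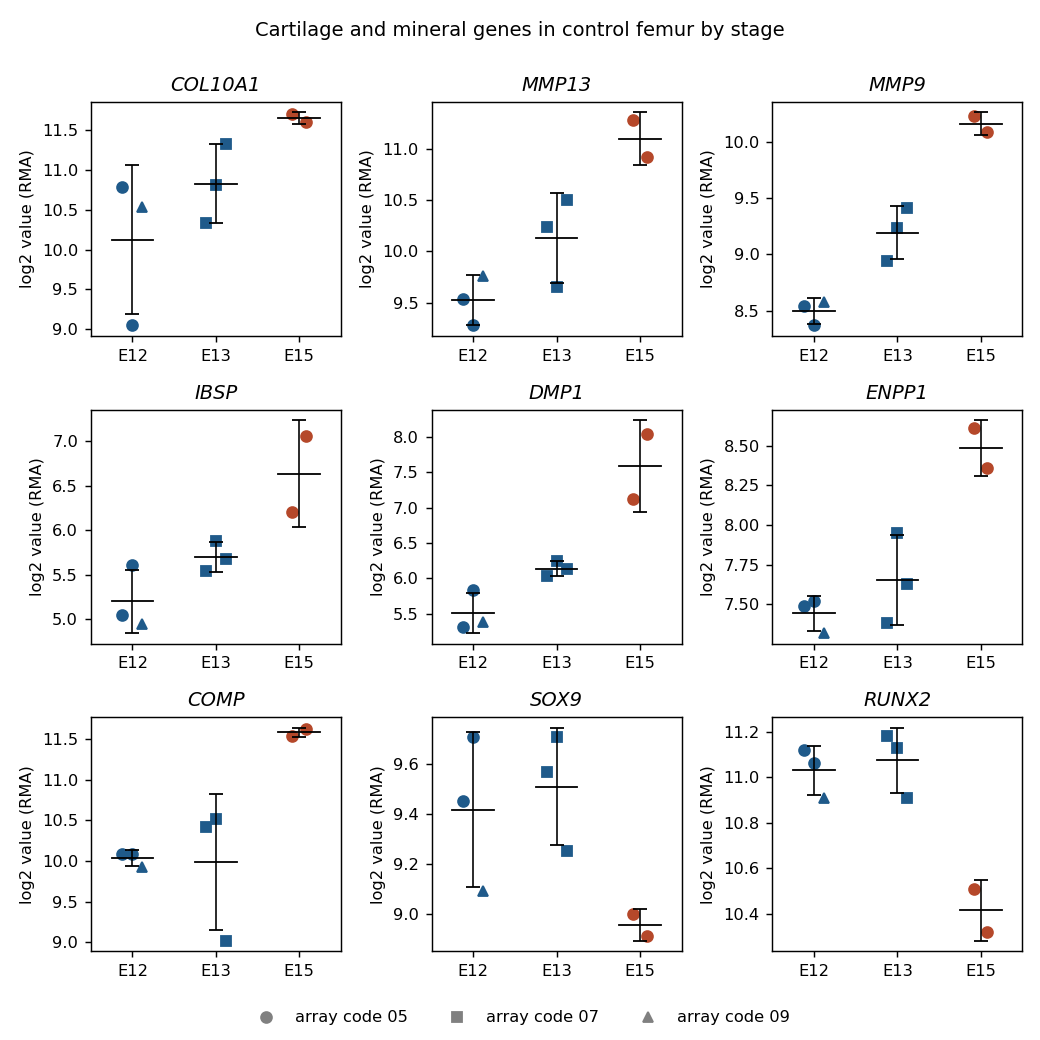
Log2 values (vertical axes) of 9 cartilage and mineral genes in each control femur array at E12, E13 and E15. Symbols show the array code, blue marks E12 and E13 and red E15, and bars give the mean and SD of each stage (n = 3, 3 and 2). For MMP9 and DMP1 the 3 stages do not overlap, and SOX9 and RUNX2 are lower on both E15 arrays than on any younger array.

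The genes of the cartilage matrix itself did not share a direction. Of 19 measured members, 2 rose, 3 fell and 14 were not called (26.3% called, background 14.4%), and their median difference was 0.01. The link protein HAPLN1 read 12.85 to 13.05 in the younger arrays and 12.96 and 12.94 at E15, and COL9A1, of type IX collagen, 12.69 to 12.88 against 12.93 and 12.94. Neither was called (0.04 ± 0.07 and 0.13 ± 0.07). ACAN, the large proteoglycan that holds water in cartilage, was slightly lower on both E15 arrays (12.39 and 12.34 against 12.49 to 12.62), and its difference of -0.18 ± 0.06 missed the threshold (adjusted p = 0.0764). No probe set is named COL2A1, IHH or PTH1R in the annotation used.

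COMP, a pentameric protein that binds collagen in cartilage and tendon, was the member that changed most. It read 10.09, 10.09 and 9.92 at E12, 10.42, 10.52 and 9.02 at E13, and 11.54 and 11.62 at E15. One E13 array, replicate 3, lay more than 1 unit below the others, and both E15 arrays lay above all 6. COMP rose by 1.57 ± 0.29 (2.97-fold, adjusted p = 0.00331). ITM2A, a membrane protein of chondrocytes, rose by 0.47 ± 0.10 (0.00888), and MATN3 was at 11.60 and 11.73 against 10.81 to 11.65 (0.56 ± 0.20, adjusted p = 0.0755). In the other direction, SNORC, a small transmembrane proteoglycan of chondrocytes, fell by 0.66 (SE 0.16, adjusted p = 0.0144). The matrilins MATN4 and MATN1, which bridge matrix fibrils, fell by 0.50 and 0.21 (0.0337 and 0.035).

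Of 27 measured transcription factors of chondrocytes, 20 were below 0, 3 fell and 1 rose, which at 14.8% called is near the background of 14.4%, and the median was -0.21. SOX9, which commits cells to cartilage and switches on its matrix genes, read 9.45, 9.71 and 9.09 at E12, 9.57, 9.71 and 9.25 at E13 and 9.0 and 8.91 at E15. The E15 arrays lay just below the lowest E12 array, and the fall was 0.51 (SE 0.13, adjusted p = 0.019). SOX5, its partner, was at 11.26 and 11.28 against 11.36 to 11.65, a difference of -0.25 ± 0.08 (adjusted p = 0.0504). TWIST2, a bHLH factor of mesenchyme, went down by 0.78 (0.00239) and GLI1, described below with hedgehog signalling, by 0.97. The 1 that rose was EPAS1, an oxygen-sensitive factor that acts on hypertrophic genes (0.66 ± 0.18, adjusted p = 0.0227), although E13 replicate 3 at 9.44 lay above E15 replicate 1 at 9.40.

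None of the 8 genes called here held the call under all settings. In the fit of the 8 femur arrays all but TWIST2 lost it (adjusted p = 0.0729 to 0.231), and EPAS1 and MATN1 did with the array code as a block (0.106 and 0.13). Without E15 replicate 2 all 8 lost it (COMP, EPAS1, ITM2A, MATN1, MATN4, SNORC, SOX9 and TWIST2, adjusted p = 0.0603 to 0.333), and without E15 replicate 1 all but COMP and TWIST2 (0.0935 to 0.17). MATN1 and MATN4 also lost it without E12 replicate 1, MATN1 without E13 replicate 1 and MATN4 without E13 replicate 2 (0.0528 to 0.0623).

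Of 24 measured matrix proteases and their inhibitors, 8 rose, 1 fell and 15 were not called (37.5% called, background 14.4%), with a median of 0.24. MMP10, a stromelysin that cleaves proteoglycans and activates collagenases, showed the largest change. Its values were 7.21, 6.90 and 7.42 at E12, 7.60, 6.68 and 8.25 at E13, and 10.60 and 9.84 at E15. Both E15 arrays stood well above every younger array, and the rise was 2.88 ± 0.47 (7.34-fold, adjusted p = 0.00142). TIMP3, a matrix-bound inhibitor of metalloproteinases, rose by 0.67 ± 0.11 (0.00125) under this and every other setting. The serine protease HTRA1 rose by 0.68 (0.00487) and the cathepsin listed as CTSV by 0.38 (0.00353). The 1 that fell was ADAMTS20, a secreted metalloproteinase, by 0.93 (0.00737).

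Of 29 measured genes of tendon, joint and fibrous tissue, 8 rose, 3 fell and 18 were not called (37.9% called). LUM, a small leucine-rich proteoglycan that organises collagen fibrils, read 9.89, 9.88 and 9.98 at E12, 9.54, 9.87 and 9.71 at E13, and 10.82 and 11.09 at E15 (1.14 ± 0.15, adjusted p = 0.000356). The 3 chains of type VI collagen, the microfibril around chondrocytes and in loose tissue, rose together, COL6A1 by 0.85, COL6A2 by 1.12 and COL6A3 by 0.84 (adjusted p = 0.00399, 0.000427 and 0.00165). DPT (dermatopontin), a collagen-binding protein, rose by 1.25 ± 0.31 (0.0161). The 3 that fell were KERA, a keratan sulphate proteoglycan (by 1.32, adjusted p = 0.00663), CILP of the cartilage intermediate layer (by 1.09, 0.0186) and OSR1, a transcription factor of fibrous and joint-forming mesenchyme (by 0.84, 0.0207). LUM, COL6A2 and TIMP3 were called under all settings. In the fit of the 8 femur arrays 7 of the 13 genes of proteases and fibrous matrix were not called (adjusted p = 0.0674 to 0.0947). Within code 05, 6 were not, MMP10 among them. Of the 13 genes named here, ADAMTS20, CILP, DPT, HTRA1, KERA and OSR1 lost the call without E15 replicate 1 (adjusted p = 0.0737 to 0.2), and CILP, COL6A1, COL6A3, CTSV, DPT, KERA and OSR1 without E15 replicate 2 (0.0655 to 0.126).

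Of 29 measured genes that build and sulphate proteoglycan chains, 7 fell, 3 rose and 19 were not called (34.5% called, background 14.4%), with a median of -0.03. In the fit of the 8 femur arrays, and again without E15 replicate 2, 1 member was called, lower. SLC35B2, which carries the sulphate donor into the Golgi, was at 8.34 to 8.70 in the younger arrays and at 7.91 and 7.73 at E15, and fell by 0.75 (SE 0.13, adjusted p = 0.00219). EXTL3, which starts heparan sulphate chains, fell by 0.61 (0.00195). CHPF, which extends chondroitin chains, fell by 0.62 (0.0155) and CHST13, which sulphates them, by 0.56 (0.0129). The 3 that rose were CSGALNACT2, which adds the first galactosamine of chondroitin (0.43, adjusted p = 0.00239), the sulphotransferase CHST15 (0.44, 0.0424) and the hyaluronan synthase HAS2 (0.49, 0.026).

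In the pathway that folds and exports collagen, 5 of 36 measured genes were called (13.9%, background 14.4%). PPIB, the prolyl isomerase that speeds folding of the collagen helix, was at 11.95, 11.96 and 11.54 at E12, 11.82, 11.79 and 11.75 at E13 and 11.29 and 11.26 at E15. It fell by 0.53 (SE 0.10, adjusted p = 0.00285), with no overlap. ADAMTS3, which removes the amino-terminal propeptide of type II procollagen, fell by 0.46 (SE 0.06, adjusted p = 0.000577) under this and every other setting. CREB3L2, a transcription factor for secretory genes of chondrocytes, fell by 0.33 (0.0236). SEC23A, a coat protein of the vesicles that carry procollagen, rose by 0.25 (0.0213), and the isomerase FKBP14 by 0.42 (0.045). Of these 12 genes of chain synthesis and secretion, 6 lost the call without E15 replicate 1 (adjusted p = 0.0814 to 0.171) and 10 without E15 replicate 2 (0.0535 to 0.335), and ADAMTS3 and EXTL3 kept it in both. CHST15 and FKBP14 also lost it without E12 replicate 1 or 2 or E13 replicate 1 or 2 (0.0544 to 0.0785).

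Of 13 measured members of the hedgehog and PTHrP list, 4 fell, none rose and 9 were not called (30.8% called, background 14.4%), and the median was -0.39. Without E15 replicate 1 the list held 1 call and without E15 replicate 2 it held 0. GLI1, a transcription factor that is itself a target of the pathway, read 7.01, 7.42 and 6.86 at E12, 7.52, 7.40 and 6.79 at E13 and 6.30 and 6.10 at E15. Both E15 arrays lay below every younger one, and it fell by 0.97 (SE 0.19, adjusted p = 0.00429). SCUBE2 and DISP1, which help release the lipid-bearing ligand from the cells that make it, fell by 0.82 and 0.49 (0.00451 and 0.03). SMO, the membrane protein that passes the signal into the cell, fell by 0.46 (0.0424).

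The BMP and TGF-beta list held 3 rises and 3 falls among 33 measured members (18.2% called, background 14.4%). BMPR1B, a BMP receptor of cartilage condensations, read 7.62, 7.64 and 7.42 at E12, 7.51, 7.50 and 6.99 at E13 and 6.52 and 6.38 at E15. It fell by 1.00 (SE 0.14, adjusted p = 0.000577), and this call held under all 18 other settings. SMAD1, which carries BMP signals to the nucleus, fell by 0.43 (0.00173), and the secreted BMP antagonist NOG by 0.59 (0.0105). TGFBI, a matrix protein induced by TGF-beta, rose by 0.70 (0.00551). The Wnt list (3 of 36 called, 8.33%) lay below the background, and the FGF list (2 of 14, 14.3%) at it.

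Growth factor and hormone genes included 1 clear rise. IGF1, the growth factor that enlarges chondrocytes, was at 6.44, 5.82 and 6.84 at E12, 6.01, 6.22 and 6.48 at E13, and 7.62 and 7.66 at E15. It rose by 1.34 ± 0.21 (2.53-fold, adjusted p = 0.00125) under this and every other setting. The RNA-binding proteins IGF2BP2 and IGF2BP3 and the chromatin protein HMGA2, all more abundant in early embryonic tissue, fell by 0.66, 0.31 and 0.82 (adjusted p = 0.00829, 0.0244 and 0.00239). In the list of thyroid hormone, retinoid, vitamin D and steroid genes, 4 of 17 rose and none fell (23.5%). These were the thyroid hormone receptor THRB (0.86, adjusted p = 0.00799), the transporter SLC16A10 (0.56, 0.0314) and the retinoic acid-making enzymes ALDH1A2 (1.14, 0.0134) and ALDH1A3 (0.92, 0.00502). MTOR itself was at 7.90 to 8.17 in the younger arrays and at 7.94 and 7.99 at E15 and was not called (-0.07 ± 0.09, adjusted p = 0.636).

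Of these 16 called signalling genes, 10 lost the call without E15 replicate 1 (adjusted p = 0.0525 to 0.259) and 11 without E15 replicate 2 (0.0655 to 0.216). SMO was also lost without E12 replicate 1 or 2 or E13 replicate 2, SLC16A10 without E12 replicate 2 or E13 replicate 2, and DISP1 without E12 replicate 1 (0.0533 to 0.0742). In the fit of the 8 femur arrays 11 of the 16 were not called, GLI1 among them (0.0523 to 0.169), and within code 05 also 11. With the array code as a block, DISP1, IGF2BP3 and TGFBI were not called (0.0617 to 0.263). BMPR1B and IGF1 kept theirs throughout.

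Most of the largest rises were in genes of white blood cells, osteoclasts and antimicrobial granules. The avian beta-defensins AvBD7, AvBD6 and AvBD1 and DEFB4A, cationic peptides that kill microbes, rose by 3.04, 2.84, 2.62 and 2.21. The goose-type lysozyme LYG2 rose by 2.78, the protease inhibitor CSTA by 2.46 and LECT2, a protein that attracts neutrophils in mammals, by 3.06. Their adjusted p-values were 0.0164 to 0.0332. Defensin genes are near-copies of each other, so probe sets may in part share signal.

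LECT2 read 3.80, 4.30 and 3.87 at E12, 3.83, 5.91 and 5.10 at E13 and 6.60 and 8.45 at E15. The E13 replicates 2 and 3 already lay above all E12 arrays, and the E15 arrays lay nearly 2 units apart. AvBD7 showed the same spread, with 5.04, 3.70 and 4.36, then 4.47, 7.03 and 6.21, then 7.29 and 9.06. LY86, a partner of a Toll-like receptor on B cells and macrophages, was much less variable, with 7.62, 7.39 and 7.87 at E12, 7.79, 8.31 and 7.10 at E13 and 9.69 and 10.06 at E15. Its rise of 2.19 ± 0.24 (4.58-fold, adjusted p = 9.88e-05) was called under all 18 other settings.

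ATP6V0D2, a subunit of the proton pump with which osteoclasts dissolve mineral, had the largest difference among the named genes that rose. It was at 3.66, 2.15 and 3.36 at E12, 2.77, 3.66 and 4.83 at E13 and 7.12 and 6.57 at E15 (3.44 ± 0.71, adjusted p = 0.00592). The files hold no detection call, and the younger values lie below the median of every array, so the size of this rise is uncertain. The younger means of the defensins, LECT2, LYG2 and CSTA also lie below that median. In the list of leukocyte and osteoclast markers, which includes this gene and MMP9, 7 of 16 measured members rose and none fell (43.8%, background 14.4%), with a median of 0.53. The array holds 23 members, and 7 of the 16 measured had a mean below the array median. A gene of low level passes the filter on spread only if some arrays are high, so this share may in part be set by the filter. With probe sets filtered on mean level instead, 4 of 9 member genes rose, beside 534 rises among all probe sets past that filter. It keeps the probe sets whose mean over all arrays exceeds the median of such means over all 20804. The mean level of the list was 6.26 to 6.31 in the E12 arrays, 6.16 to 6.62 at E13 and 7.0 on both E15 arrays. The differences of 14 members were above 0 and those of 2 below. The dissection left out marrow, and the part of such cells in the result was not tested. PTPRC (CD45), which marks white blood cells, lay at 4.58 to 5.38 before E15 and at 5.81 and 5.48 after (0.75 ± 0.20, adjusted p = 0.0244), below the middle of all probe sets. LCP1, ITGB2 and LAPTM5, of the cytoskeleton, adhesion and lysosomes of white blood cells, rose by 0.93, 0.84 and 0.50 (0.0161, 0.0272 and 0.0102).

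All but LY86 of these 13 genes lost the call under some setting. Without E15 replicate 1, 10 did (adjusted p = 0.0525 to 0.253), AvBD1, LY86 and LYG2 being the exceptions. Without E15 replicate 2, all 12 others did (0.0565 to 0.327). With the array code as a block, 9 were not called (0.0571 to 0.111), which leaves ATP6V0D2, LECT2, LYG2 and LY86. AvBD7 and ITGB2 lost theirs without E12 replicate 2 and DEFB4A without E13 replicate 1 (0.0508 to 0.0543).

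Of 13 measured red blood cell genes, 6 rose and 1 fell (53.8%). RHAG, a red cell membrane channel, was at 5.10 to 5.52 in the 6 younger arrays and at 7.15 and 6.89 at E15. This rise of 1.76 ± 0.30 (adjusted p = 0.00191) held under all settings. SLC4A1 (band 3, the anion exchanger) rose by 1.27 and EPB42, which ties it to the cell skeleton, by 1.15 (0.00628 and 0.000751). The younger values of RHAG and the younger mean of SLC4A1 lie below the median of every array, so the sizes of these 2 rises are uncertain. The globins divided. The alpha-type HBAD and HBA1 rose by 0.78 and 0.69 (0.0128 and 0.0103) from levels already among the highest of the array. HBE, an epsilon globin of the embryo, read 6.75, 6.77 and 5.74 at E12, 5.53, 6.65 and 6.60 at E13, and 4.69 and 3.95 at E15. It fell by 2.02 (SE 0.36, adjusted p = 0.00246), the only erythroid gene called lower. The E15 values of HBE lie below the median of every array, so the size of this fall is uncertain. Globin genes resemble each other, and the files do not show how far their probes are specific. HBA1 and HBAD were not called with the array code as a block (0.117 and 0.134). Within code 05 EPB42, HBA1 and HBAD were not called (0.0542 to 0.179). The rises on the list went from 6 to 3 in either setting. In the fit of the 8 femur arrays HBA1, HBAD and HBE lost the call (0.0541 to 0.089). HBA1, HBAD and SLC4A1 lost the call without E15 replicate 1 (0.103 to 0.142), and these 3 and HBE without E15 replicate 2 (0.0502 to 0.0838).

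Among 17 measured endothelial and pericyte genes, 15 were above 0, 3 rose and 1 fell (23.5%), with a median of 0.44. The VEGF receptor KDR rose by 0.62, the endothelial sialomucin EMCN by 0.53 and the clotting factor carrier VWF by 0.74 (adjusted p = 0.0239, 0.00853 and 0.0407). The pericyte proteoglycan CSPG4 fell by 0.81 (0.036). With the array code as a block KDR, EMCN and VWF were not called (0.0552 to 0.146). In the fit of the 8 femur arrays the list held 0 calls, and 231 of 11004 probe sets were called in all. None of these 4 was called without E15 replicate 2 (0.156 to 0.489). The mean level of the list was 6.47 to 6.60 at E12, 6.40 to 6.96 at E13 and 6.83 to 7.07 at E15. VWF and CSPG4 were lost as well without E12 replicate 1 or E13 replicates 1 or 2, VWF also without E12 replicate 2, and KDR and CSPG4 without E15 replicate 1 (0.0522 to 0.173).

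Several of the largest falls were in genes of skeletal muscle. Of 31 measured members of the muscle list, 16 fell, none rose and 15 were not called (51.6% called, background 14.4%), and the median was -0.97. The array holds 46 members, and 16 of the 31 measured had a mean below the array median. Called lower were 14 in the fit of the 8 femur arrays, 9 with the array code as a block and 7 within code 05. Over all 11004 probe sets, 124, 631 and 182 were lower in these settings. With probe sets filtered on mean level instead of spread, 7 of 15 were called lower, beside 733 lower among all probe sets past that filter. It keeps those of the 20804 probe sets whose mean over all arrays exceeds the median of such means. OCM3, a calcium-binding protein of the parvalbumin family that is outside the list, fell most of all genes, from 8.01, 8.38 and 8.64 at E12 and 7.12, 7.41 and 8.01 at E13 to 4.17 and 4.86 at E15 (by 3.41, SE 0.49, adjusted p = 0.000577). TNNI1, the slow troponin I, had the lowest p of the list, with 7.84, 8.08 and 7.81, then 7.28, 7.49 and 7.62, then 5.39 and 5.57. The 3 stages did not overlap for this gene, and it fell by 2.21 (SE 0.20, adjusted p = 4.62e-05). The E15 values of OCM3 and TNNI1 lie below the median of every array, so the sizes of these falls are uncertain.

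Other sarcomere genes followed. ACTC1, the cardiac-type actin of embryonic muscle, fell by 2.29 (adjusted p = 0.0118), TNNC1 by 1.66 (0.000427), the myosin light chains MYL2 and MYL4 by 1.66 and 1.31 (0.00161 and 0.000577), the myosin heavy chain MYH1D by 1.79 (0.0173), MYBPC3 by 1.5 (0.00487) and the Z-disc protein MYOZ2 by 1.30 (0.00111). SMYD1, a methyltransferase needed for sarcomere assembly and also outside the list, fell by 2.22 (0.00102). MYOD1, the transcription factor that commits cells to muscle, was at 6.85, 6.68 and 6.67 at E12, 6.14, 5.91 and 6.53 at E13 and 4.93 and 4.90 at E15 (by 1.55, adjusted p = 0.00364). The E15 values of MYOD1 also lie below the median of every array. Of the 3 members above 0, MYH1C stood out, at 5.29 and 6.24 against 2.71 to 5.20, without a call (1.72 ± 0.64, adjusted p = 0.086). Myosin heavy chain genes of the chick lie in a cluster of close copies, and values of single members are uncertain.

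The mean level of the muscle list was 6.85 to 7.13 in the E12 arrays, 6.41 to 6.82 at E13 and 5.73 to 6.02 at E15. The ranges of the stages did not overlap. Muscle is not part of the growth cartilage, and how much of it each pool held was not recorded in the sources used here, so its part in these differences was not tested. OCM3, SMYD1, TNNI1, TNNC1, MYL4 and MYOZ2 were called under every setting that tested them. ACTC1, MYH1D and MYOD1 lost the call without E15 replicate 1 (0.0501 to 0.135), and these, MYBPC3 and MYL2 without E15 replicate 2 (0.0564 to 0.129), when the list kept 6 and 4 of its 16 calls.

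**Figure D3:**
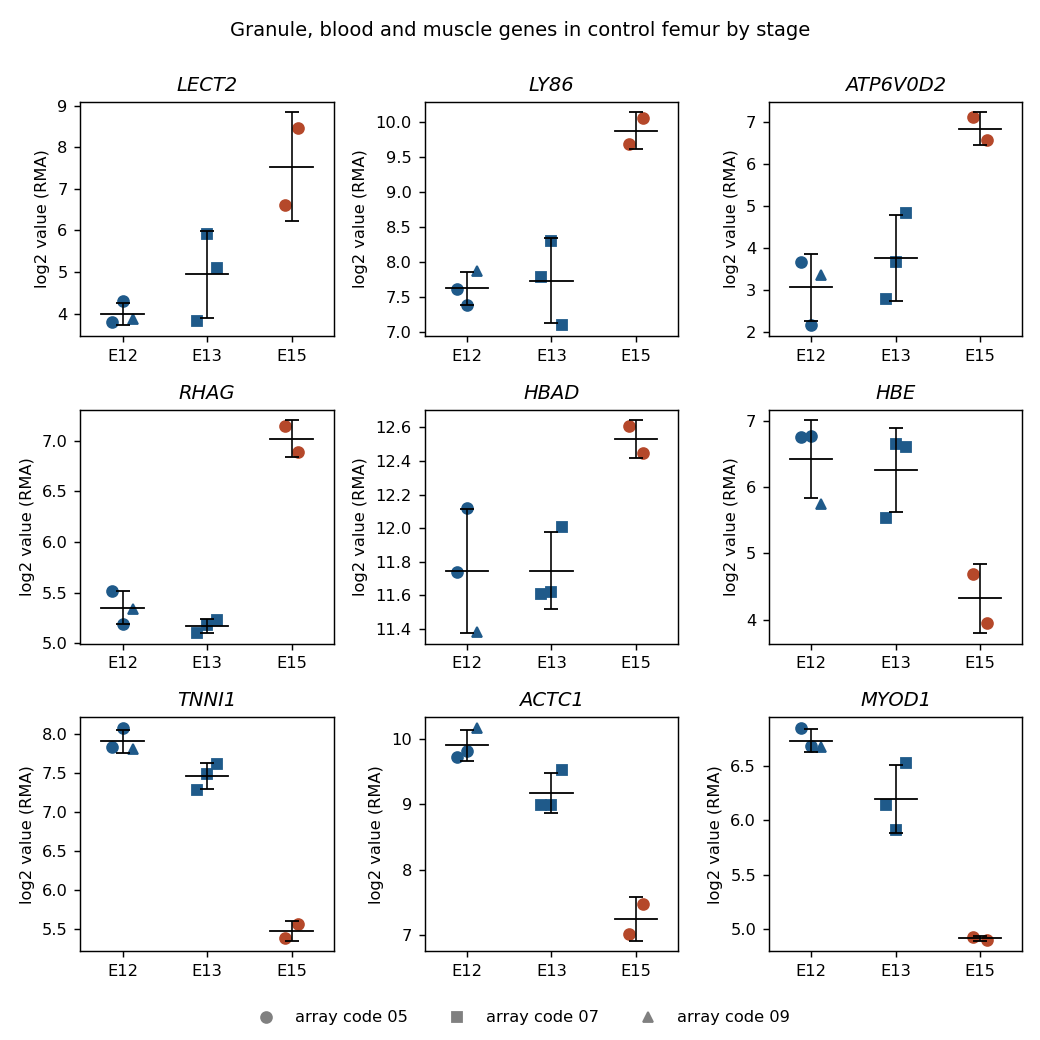
Log2 values (vertical axes) of 9 genes of immune cells, osteoclasts, red blood cells and muscle in each control femur array by stage. Symbols show the array code, blue marks E12 and E13 and red E15, and bars give the mean and SD (n = 3, 3 and 2). LECT2 and ATP6V0D2 vary among the younger arrays, RHAG is flat until E13 and at 7.15 and 6.89 at E15, and the muscle genes TNNI1, ACTC1 and MYOD1 have a lower mean at each later stage.

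Of 44 measured genes of oxidative phosphorylation, 36 were below 0, 11 fell, none rose and 33 were not called (25% called, background 14.4%), with a median of -0.20. NDUFC2, a subunit of complex I, read 8.69, 8.16 and 8.13 at E12, 8.61, 8.30 and 8.04 at E13, and 7.66 and 7.55 at E15. It showed the largest of these falls, 0.72 (SE 0.13, adjusted p = 0.00331). NDUFS8 and NDUFB5 of the same complex fell by 0.60 and 0.43, COX6A1 of cytochrome oxidase by 0.43 and ATP5H of the ATP synthase by 0.40 (0.0115, 0.00298, 0.00527 and 0.0199). In the TBT, where 10.8% of genes were called, no member of the list was called and the median was -0.01. The direct test of the difference between the elements, given below, had no call for any gene. Femur and TBT also share no array code at E15.

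Of 49 measured ribosomal protein genes, 43 were below 0, with a median of -0.12, and 6 fell (12.2%, below the background of 14.4%). The largest fall was that of RPS13 (by 0.68, adjusted p = 0.00868), followed by RPS29 (by 0.48, 0.0142), and RPL4 fell by 0.25 (0.0142). In glycolysis 4 genes fell and 2 rose among 19 measured (31.6% called, background 14.4%). The glucose transporter SLC2A1 fell by 0.54, PFKL, of phosphofructokinase, by 0.53, the pyruvate kinase entry PKLR by 0.35 and GAPDH by 0.30 (0.0123, 0.0145, 0.0236 and 0.00913). PDK4 and PDK3, kinases that hold pyruvate back from the mitochondrion, rose by 1.05 and 0.29 (0.0118 and 0.0359).

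Of 35 measured S phase genes 32 were below 0, with a median of -0.10, and 3 fell (8.57%, below the background). These were the replication factors MCM10 (by 0.56, adjusted p = 0.0214) and MCM5 (by 0.46, 0.0495) and the ribonucleotide reductase subunit RRM1 (by 0.31, 0.045). Of 46 measured genes of G2 and mitosis, 3 fell and none rose (6.52%, below the background of 14.4%), and the median was -0.03. The 3 were the kinase PLK1 (by 0.39, 0.0138), INCENP of the chromosomal passenger complex (by 0.37, 0.0182) and the kinesin entry KIF4B (by 0.40, 0.0198).

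Of the 20 energy, ribosome and cell cycle genes called here, none was called in the fit of the 8 femur arrays alone, and without either E15 array the list of oxidative phosphorylation kept 1 of its 11 calls. MCM5 and RRM1 lost the call without E12 replicate 2 or E13 replicate 1 or 2, MCM5 and PDK3 without E12 replicate 1, and PDK3 without E13 replicate 1 (0.0558 to 0.0857). Without E15 replicate 1, only NDUFC2 and PDK4 of these genes were called, and without E15 replicate 2 only MCM10 and NDUFB5. After quantile normalization of the values, GAPDH, RPL4 and RRM1 were not called (0.0529 to 0.226).

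**Figure D4:**
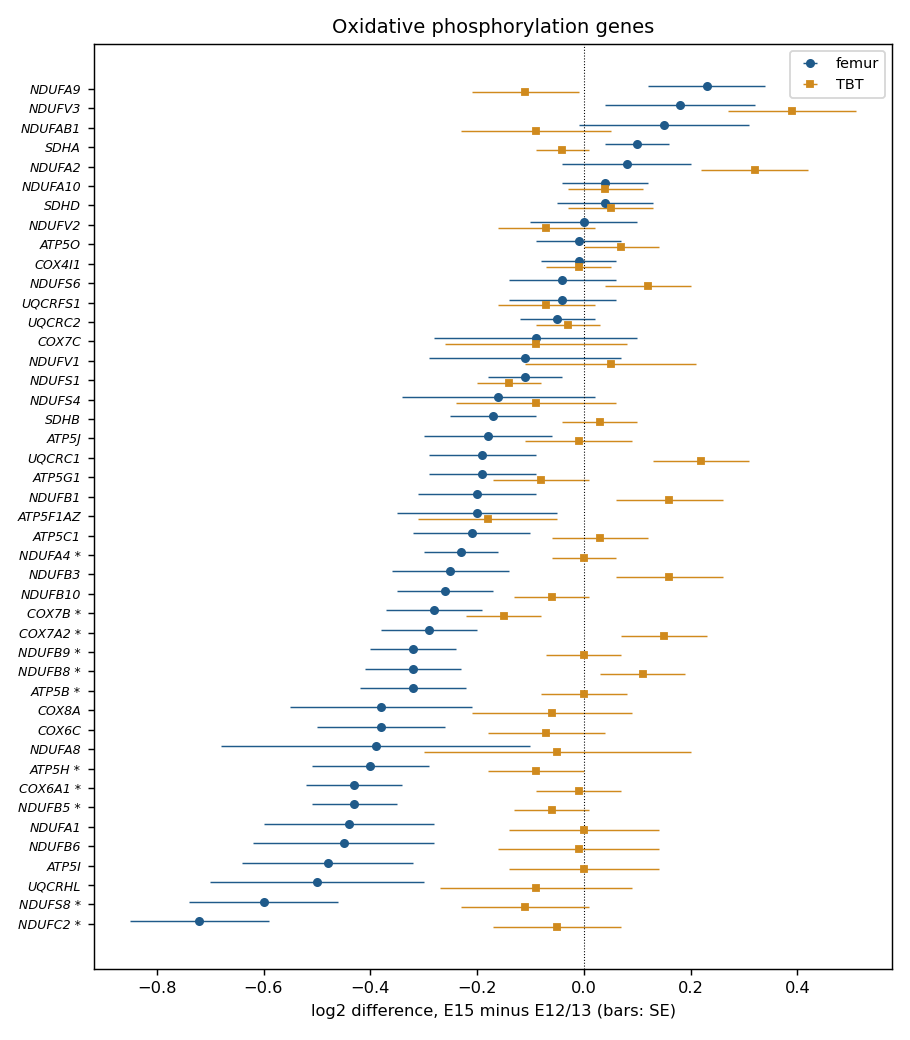
Difference in log2 value between E15 and E12/13 (horizontal axis, with standard errors) for 44 genes of oxidative phosphorylation in the control femur (circles) and the control TBT (squares). An asterisk marks the 11 genes called in the femur. In the femur 36 members lie below 0 (median -0.20), while in the TBT they scatter around a median of -0.01.

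Several of the largest changes were outside the lists. PENK, the precursor of enkephalin peptides, read 7.24, 7.11 and 7.08 at E12, 5.92, 6.55 and 7.29 at E13 and 4.41 and 4.86 at E15. It fell by 2.23 (SE 0.32, adjusted p = 0.000577). The E15 values of PENK lie below the median of every array, so the size of this fall is uncertain. NRIP2, which binds nuclear receptors, fell by 1.70 (0.000751), FREM2, a basement membrane protein, by 1.77 (0.00849), the methyltransferase BHMT2 by 1.61 (0.0329) and C4H4ORF50, an open reading frame, by 1.77 (0.000427). Among the rises were the chemokine CXCL14 (1.62, adjusted p = 0.00829), the carbonic anhydrase CA13 (1.69, 0.000577) and HMP19, a vesicle protein of neurons (1.61, 0.00399). PENK, NRIP2, C4H4ORF50 and CA13 were called under every setting that tested them. BHMT2, CXCL14 and FREM2 lost the call without E15 replicate 1 (0.057 to 0.231), these and HMP19 without E15 replicate 2 (0.0854 to 0.145), and BHMT2 without E12 replicate 2 (0.0566).

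In limb patterning 2 of 16 measured genes were called (12.5%), in adhesion and condensation 6 of 45 (13.3%) and in hypoxia and stress 3 of 24 (12.5%). The list of neurons and Schwann cells held 1 call of 10 (10%) and that of adipocytes 1 of 8 (12.5%), beside a background of 14.4%. Among immediate early genes 2 of 10 were called (20%), among small leucine-rich proteoglycans 2 of 8 (25%), in insulin and IGF signalling 3 of 14 (21.4%) and among early embryonic RNA-binding and growth genes 3 of 14 (21.4%). TBX4, a hindlimb identity factor, fell by 0.53 (adjusted p = 0.0212), the secreted Wnt antagonist SFRP5 rose by 0.67 (0.00932) and CD36, a fatty acid receptor of adipocytes and vessels, by 1.02 (0.0337). TBX4 and SFRP5 lost the call without E15 replicate 1 (0.152 and 0.16), TBX4 and CD36 without E15 replicate 2 (0.146 and 0.499), and CD36 also without E12 replicate 1 or E13 replicate 1 or 2 (0.058 to 0.0594).

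The stages were also compared in pairs. In E13 against E12, 1 probe set of 11004 was called (0.00909%), with 539 at an unadjusted p under 0.05. It was N6AMT1, a methyltransferase, at 7.22, 6.96 and 7.38 at E12 and 7.98, 7.88 and 8.08 at E13 (0.79 ± 0.12, adjusted p = 0.0453), and at 7.56 and 7.64 at E15. In E15 against E12, 1199 probe sets (10.9%) were called and in E15 against E13, 537 (4.88%). Over all probe sets tested, the median size of the step was 0.09 from E12 to E13 and 0.18 from E13 to E15, an interval of more days.

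Stage means of some called genes are given as a description. From E12 to E13 to E15, MMP9 had means of 8.50, 9.19 and 10.16 and OCM3 of 8.34, 7.51 and 4.52, the middle value being at E13. LUM (9.92, 9.71 and 10.96), RHAG (5.35, 5.17 and 7.02) and GLI1 (7.10, 7.24 and 6.20) had E13 means outside the range of the other stages. SFRP5, at 6.03, 6.69 and 7.04, was called against E12 (adjusted p = 0.00206) and not against E13 (0.239). The count for E15 against E13 fell from 537 to 138 with the array code as a block and to 24 in the fit of the 8 femur arrays. The 2 groups share no code, so the block estimate rests on the codes of other groups. Without E15 replicate 1 or 2 it was 45 or 37, and without E13 replicate 1 or 2 it was 312 or 257. Against E12, the count was 293 or 206 without E15 replicate 1 or 2, and 679 or 507 without E12 replicate 1 or 2.

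In the control TBT 412 probe sets were higher at E15 (3.74%) and 629 lower (5.72%), or 9.46% of 11004 in all. Called higher in both elements were 180, which is 31.1% of the femur calls and 43.7% of the TBT calls, and called lower in both 272 (35.5% and 43.2%). No probe set called in 1 element was called in the opposite direction in the other. Of the femur calls, 92.4% of the higher and 91.1% of the lower had the same sign in the TBT, beside 68.2% over all probe sets. In the TBT, where 10.8% of genes were called, skeletal muscle had 15 members lower and 1 higher (median -0.79). Leukocytes and osteoclasts had 10 higher (0.68), the hypertrophic zone 8 higher (0.38) and red blood cells 6 higher and 1 lower (0.33). Proteoglycan chain synthesis had 1 higher and 0 lower there, and glycolysis and ribosomal proteins had 0 calls.

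The femur change minus the TBT change was tested directly with limma. At E15 the femur arrays (code 05) and the TBT arrays (07 or 09) share no code, so element and code cannot be told apart there. No probe set passed (0 of 11004, smallest adjusted p = 0.296), also under the other limma settings tried, while 1152 had an unadjusted p under 0.05. The genes with the lowest p are therefore given as values only. ALG3, a mannosyltransferase of protein glycosylation, was at 5.55 to 6.07 in the younger femur arrays and at 4.82 and 4.89 at E15 (a difference of -0.91 ± 0.14, adjusted p = 0.00113), with -0.08 in the TBT. SLC13A4, a sulphate transporter, was at 4.03 to 5.28 and then at 6.03 and 5.93 in the femur (1.42 ± 0.23, adjusted p = 0.00118) and changed by 0.03 in the TBT. Both kept their femur call under every setting that tested them. The younger values of SLC13A4 and the E15 values of ALG3 lie below the median of every array, so the sizes of these changes are uncertain.

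PCBD1, ADIPOR1 and VANGL1 fell in the femur by 0.41, 0.39 and 0.54 (adjusted p = 0.0093, 0.00487 and 0.00512) whereas the TBT differences were above 0, at 0.19, 0.11 and 0.14, with no call. They are a cofactor-recycling enzyme, an adiponectin receptor and a planar polarity protein. VANGL1 lost the femur call without either E15 array and PCBD1 and ADIPOR1 without E15 replicate 1 (0.062 to 0.159). CSGALNACT2 differed by 0.43 in the femur and -0.02 in the TBT. SEC61G of the protein translocation channel, the ciliary protein TMEM67, CSMD3 and the mitochondrial enzyme GATB were not called in the femur (-0.10, 0.23, 0.63 and 0.15) and differed by 0.52, -0.37, -0.64 and -0.25 in the TBT. The differences of differences of these 10 genes ranged from -0.84 to 1.40.

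Estimates in the 2 elements are given here for several genes of the results above, none of which passed that test. IGF1 rose by 1.34 in the femur and differed by 0.17 in the TBT (difference 1.17 ± 0.28, unadjusted p = 0.000658). GLI1 fell by 0.97 in the femur, with -0.16 in the TBT (-0.81 ± 0.25, unadjusted p = 0.00486). COL10A1 differed by 0.38 in the TBT (difference 0.79 ± 0.49, unadjusted p = 0.126). The difference between the elements was 0.03 ± 0.26 for MMP9, 0.11 ± 0.19 for BMPR1B, -0.39 ± 0.39 for COMP and -0.23 ± 0.65 for OCM3, each no larger than its SE. For LY86 the values were 2.19 and 1.55, and both were called.

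**Figure D5:**
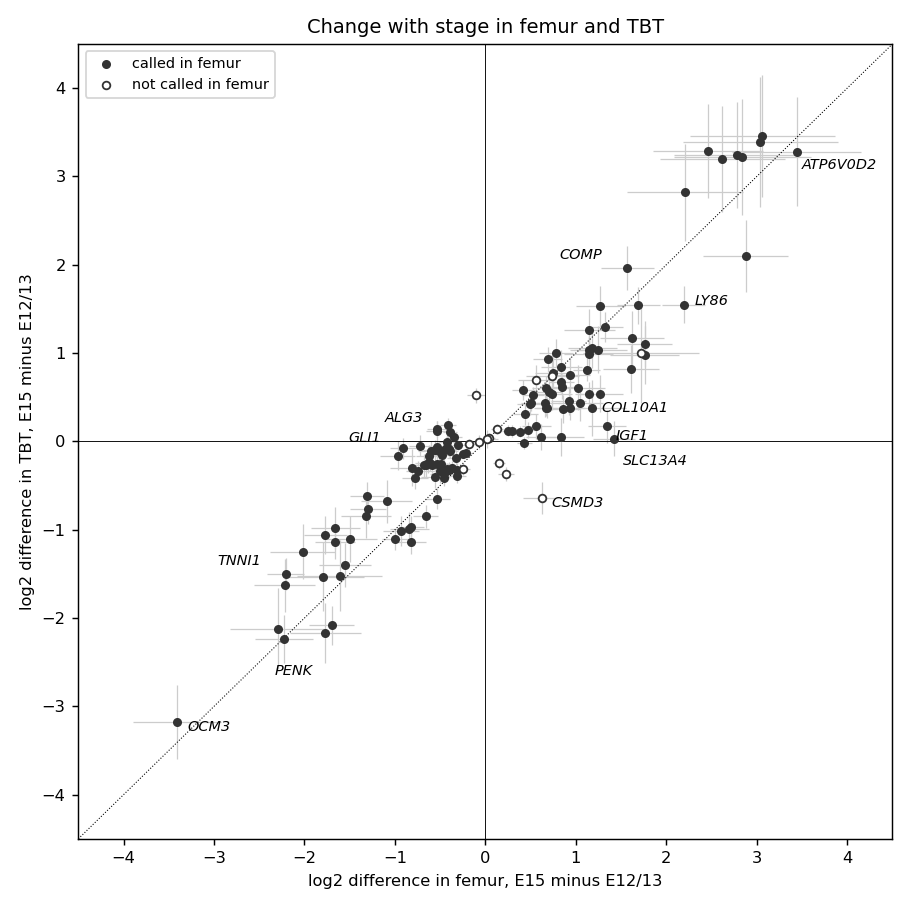
Difference in log2 value between E15 and E12/13 in the control femur (horizontal axis) and the control TBT (vertical axis) for genes named in the text. Grey bars are standard errors, filled points were called in the femur, and the dotted line marks equal change. Most points lie in the lower left and upper right, with OCM3 at -3.41 and -3.18, whereas SLC13A4 (1.42 and 0.03) and IGF1 (1.34 and 0.17) lie near the horizontal axis.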

How the data were processed

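RNA was hybridised to Affymetrix chicken exon arrays, and the authors deposited log2 values made with RMA, which corrects background, equalises quantiles and summarises each probe set. The sample records name affy and QIAzol, the methods aroma.affymetrix and TRIzol. For package versions and the genome build the entry is: not given in the sources used here. The authors left out 1 array after principal component analysis. Their methods give 3 pools per group, and E15 control femur is the only group with 2 arrays, so the excluded array belonged to it. Its values were not available, so the spread between E15 femur pools may be larger than the 2 arrays show. The table holds 20804 probe sets, of which 12300 carry 1 gene symbol, 256 several and 8248 none, and all its value columns were used (0 left out).

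With limma 3.58.1 in R 4.3.3, 1 mean per group was fitted for 8 groups and 23 arrays, which leaves 15 residual degrees of freedom. Only probe sets with a standard deviation above 10 on the linear scale were tested, 11004 in all. A probe set of low level passes this filter only if some arrays are high, which may raise the share called in lists of such genes. The contrast was E15 femur minus the mean of the E12 and E13 femur means. P-values were adjusted by Benjamini-Hochberg over all probe sets tested, and a call needed 0.05 but no fold. All groups share 1 estimate of spread, and the number of arrays limits the precision. The labels do not say that replicate pools came from separate batches of eggs, so p-values measure the spread between these pools. The SAM test named in the methods was rewritten and run as an alternative. It used all regroupings of the arrays: 28 in the main comparison, 10 in E15 against E12 or E13, and 20 in E13 against E12. Its counts were taken at estimated false discovery rates of 0.0413 to 0.0584. The fit was tested on simulated data.

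Members and gene lists were chosen with earlier results of these data known. Named genes are the 15 largest rises and 15 largest falls among calls with both E15 arrays outside the younger range, the members of lowest p in each list (at most 6), and the 5 lowest p on each side of the femur minus TBT contrast. The rule adds ACAN, SOX9, COL10A1 and MTOR. HAPLN1, COL9A1, COL1A1 and ACTA1 are marker genes. ADAMTS20, CILP, OSR1, CHST15, HAS2, MYH1C and N6AMT1 fall outside the rule and were picked once their values were known. A gene with several probe sets is given by the one with the highest mean. Gene lists were described by counts and medians with no test. Sequences and genomic positions were not used here.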

Additional observations from a re-analysis of the deposited data

How the results depend on the processing

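The main count of 1346 calls (579 higher, 767 lower) became 231 (107 and 124) with the 8 femur arrays only, 335 (153 and 182) with arrays of code 05, 2366 (1077 and 1289) with array weights and 794 (349 and 445) with SAM on log2 values. Without the filter 504 were lower, and SAM on linear values gave 329 lower. Leaving out 1 array gave 199 to 1776 calls in all, 85 to 767 higher and 114 to 1009 lower. The 1199 calls of E15 against E12 became 216 with the femur arrays only, 335 with code 05, 2424 with array weights, 772 without the filter and 298 with SAM on log2 values, and 206 to 1570 without 1 array. The 537 of E15 against E13 became 24 with the femur arrays only, 138 with the array code as a block, 919 with array weights, 244 without the filter, and 18 and 68 with SAM on log2 and linear values, and 37 to 708 without 1 array. The single call of E13 against E12 became 0 with the femur arrays only, the array code as a block, equal medians, array weights, no filter and SAM, and 0 to 1 without 1 array. No femur minus TBT call was made under any setting, 0 to 0 without 1 array.

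With the replicate number as a block, 697 probe sets were higher and 898 lower in the main comparison, and E13 against E12 gave 0 calls. Same-numbered femur arrays of different stages correlated at -0.048 to 0.21 in their deviations from the stage means, so the numbers were not taken to pair stages. Whether same-numbered femur and TBT arrays of a stage came from the same embryos is not stated, and their pairing was not tested. The main fit treats them as independent. Of 2519 results for single genes under other settings, 2062 kept direction and side of the threshold. Leaving out 1 array moved SEC61G, not called, between -0.27 and 0.06 and N6AMT1 between -0.04 and 0.06 (E15 minus E12/13). Of the 20 energy, ribosome and cell cycle genes, 18 lost the call without E15 replicate 1 and 18 without E15 replicate 2. Without 1 E15 array the other is assumed to vary like the other groups, and the larger error alone can end a call. The cause of the other shifts was not tested. With 2 arrays at E15, small changes are the least certain.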
